A study of Mus musculus with 16 samples.

Results

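The annexins are a family of proteins that bind phospholipid membranes when calcium rises, and here 8 of them were followed by name: Anxa1, Anxa2, Anxa3, Anxa4, Anxa5, Anxa6, Anxa7 and Anxa11. A gene was measured if the array annotation gave it a probe set listed under its symbol alone, and its probe set with the highest mean signal was used. That held for 7 of the 8 members, among 12393 genes with such a probe set. The sole probe set for Anxa11, a partner of the calcium sensor Pdcd6, is listed under 3 symbols, so Anxa11 is given no value. Of the 7 measured members, 6 passed the filter on low signal (a mean of log2(signal + 16) of at least 6.07, or a signal of about 51.1), as did 7619 genes in all. Anxa5 passed it only through the cultures without Cre, so its difference between genotypes is described without a test. Anxa3 did not pass.

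RNA came from cultured adult mouse neural stem cells, 16 arrays in 8 groups of 2. All cultures carried Tlx(f/Z), a genotype at the locus of the orphan nuclear receptor Tlx (Nr2e1), in which f usually means a floxed allele, open to deletion by Cre, and the labels do not spell out Z. In 4 groups the cells were Tlx(f/Z;CreER), with a Cre recombinase that 4-hydroxytamoxifen (4OHT) activates, and received 4OHT or vehicle for 36 h or 60 h. The other 4 groups carried Tlx(f/Z) without CreER and received the same agents for the same times. The labels name no promoter for CreER and no number of animals or culture isolates, so the transgene and any other difference between the CreER and no-Cre cultures cannot be told apart. The arrays of a group are called biological replicates without their source. The p-values rest on the spread between these arrays, taken from a trend shared by all genes and not from each gene alone.

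Annexins share a folded core that docks on phosphatidylserine and other acidic lipids through calcium, while their N-terminal tails differ and recruit different partners, among them S100 proteins. They take part in membrane repair, vesicle traffic and the organisation of the cell cortex. Anxa1 is also known as a glucocorticoid-induced protein that signals through formyl peptide receptors, and in the brain it is best known from microglia and endothelium.

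Deposited array signals had medians between 92.16 and 132.6, and the 2 arrays of a group correlated at 0.988 to 0.991 across probe sets. Nr2e1 has 0 probe sets in the annotation used, so the deletion could not be checked on the targeted gene. Of 9 neural stem and progenitor markers on the array, 7 passed the filter, including Nes, Sox2, Vim and Egfr. Of 10 microglial markers 1 passed (Csf1r), and of 8 endothelial and mural markers 1 passed (Acta2). The fibroblast and meningeal list had 2 of 8 past the filter, Fn1 and Thy1, and the highest signal of the other 6 on any array was 41.2.

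The 3 annexins that were lowest in CreER cultures relative to cultures without Cre were Anxa5, Anxa1 and Anxa2. Their upstream sequences are shown because these are the members on which the results turn. Each is the 250 bases before the transcript start in RefSeq's table for build GRCm38.p6, written 5′ to 3′ on the gene's own strand. The genes lie at chr19:20373434-20390671 (Anxa1), chr9:69453683-69491792 (Anxa2) and chr3:36448923-36475887 (Anxa5). The windows are chr19:20390672-20390921 on the minus strand, chr9:69453433-69453682 on the plus strand and chr3:36475888-36476137 on the minus strand. Capitals mark matches, on either strand, to the GC box GGGCGG, the TATA box TATAAA and the AP-1 element TGANTCA.
Anxa1: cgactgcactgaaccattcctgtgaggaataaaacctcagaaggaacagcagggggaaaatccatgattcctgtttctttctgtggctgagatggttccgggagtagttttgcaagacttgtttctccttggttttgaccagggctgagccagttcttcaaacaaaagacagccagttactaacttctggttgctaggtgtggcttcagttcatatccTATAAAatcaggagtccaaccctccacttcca
Anxa2: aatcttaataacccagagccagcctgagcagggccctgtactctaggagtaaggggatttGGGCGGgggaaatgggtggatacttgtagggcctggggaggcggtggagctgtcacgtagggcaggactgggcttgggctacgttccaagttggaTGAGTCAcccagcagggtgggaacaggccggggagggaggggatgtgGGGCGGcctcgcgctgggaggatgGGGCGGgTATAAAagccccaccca
Anxa5: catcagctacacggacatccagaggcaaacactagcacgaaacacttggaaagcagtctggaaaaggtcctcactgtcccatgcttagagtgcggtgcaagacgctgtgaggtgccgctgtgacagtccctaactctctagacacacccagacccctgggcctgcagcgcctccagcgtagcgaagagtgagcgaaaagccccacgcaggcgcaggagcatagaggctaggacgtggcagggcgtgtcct
Anxa1 has a TATA box 32 to 27 bases before its start. In Anxa2 a TATA box lies 17 to 12 bases before the start, an AP-1 element 95 to 89 bases before it, and GC boxes 190, 48 and 24 bases before it. The Anxa5 window holds none of these motifs. GC content was 46% in the Anxa1 window, 62.4% in Anxa2 and 58.8% in Anxa5, with 2, 9 and 13 CpG dinucleotides, against medians of 52.4% and 6 over 32851 promoters.

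RefSeq's table held 8 windows for 6 of the named annexins, with 2 each for Anxa4 and Anxa7. TATAAA was present in 2 of the 8 annexin windows and in 12.4% of all 32851. TGANTCA was present in 1 of 8, against 6.75% of all, and GGGCGG in 4 of 8, against 32.7%. CCAAT was found in 0 of 8, against 33.9% of all. AAGTCA, a half-site reported for Tlx binding, was found in 0 of 8 windows, against 13.1% of all windows of this length. The 2 Anxa7 windows overlap and share 1 GC box, so the 8 windows are not independent. These counts describe letters in a 250-base window only.

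In CreER cultures 4OHT was followed by a higher Anxa1 signal at both times, and no other annexin passed the test. Array signals of Anxa1 after 36 h were 95.2 and 113.4 with 4OHT, against 31.0 and 45.6 with vehicle. After 60 h they were 85.6 and 116.6 with 4OHT, against 30.5 and 48.1 with vehicle. Every 4OHT array was thus above every vehicle array, and at neither time did the groups overlap. Means were 102.7 ± 14.8 with 4OHT and 38.8 ± 9.36 with vehicle (SD, n = 4 each), a ratio of 2.65. The vehicle signals lay below the filter signal of 51.1, so this ratio is set against a dim group.

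On the log2(signal + 16) scale, on which changes of low signals appear too small, Anxa1 rose by 1.12 (SE 0.15, limma adjusted p = 3.78e-11) over both times, by 1.16 at 36 h (adjusted p = 6.01e-05) and by 1.09 at 60 h (adjusted p = 3.94e-05). Anxa1 was 1 of 6 annexins called, while 12.4% of all genes tested were called in this comparison, 4% as higher and 8.36% as lower. At 36 h the 6 annexins again held 1 call, where 2.61% of all genes were called, 1.12% as higher and 1.5% as lower. At 60 h they held 1 call, where 7% were called, 2.36% as higher and 4.63% as lower. The 36 h call was lost when dim genes were tested too (adjusted p = 0.0665). In these bulk cultures, a change in the share of cells making an RNA and a change in RNA per cell cannot be told apart.

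**Figure D1:**
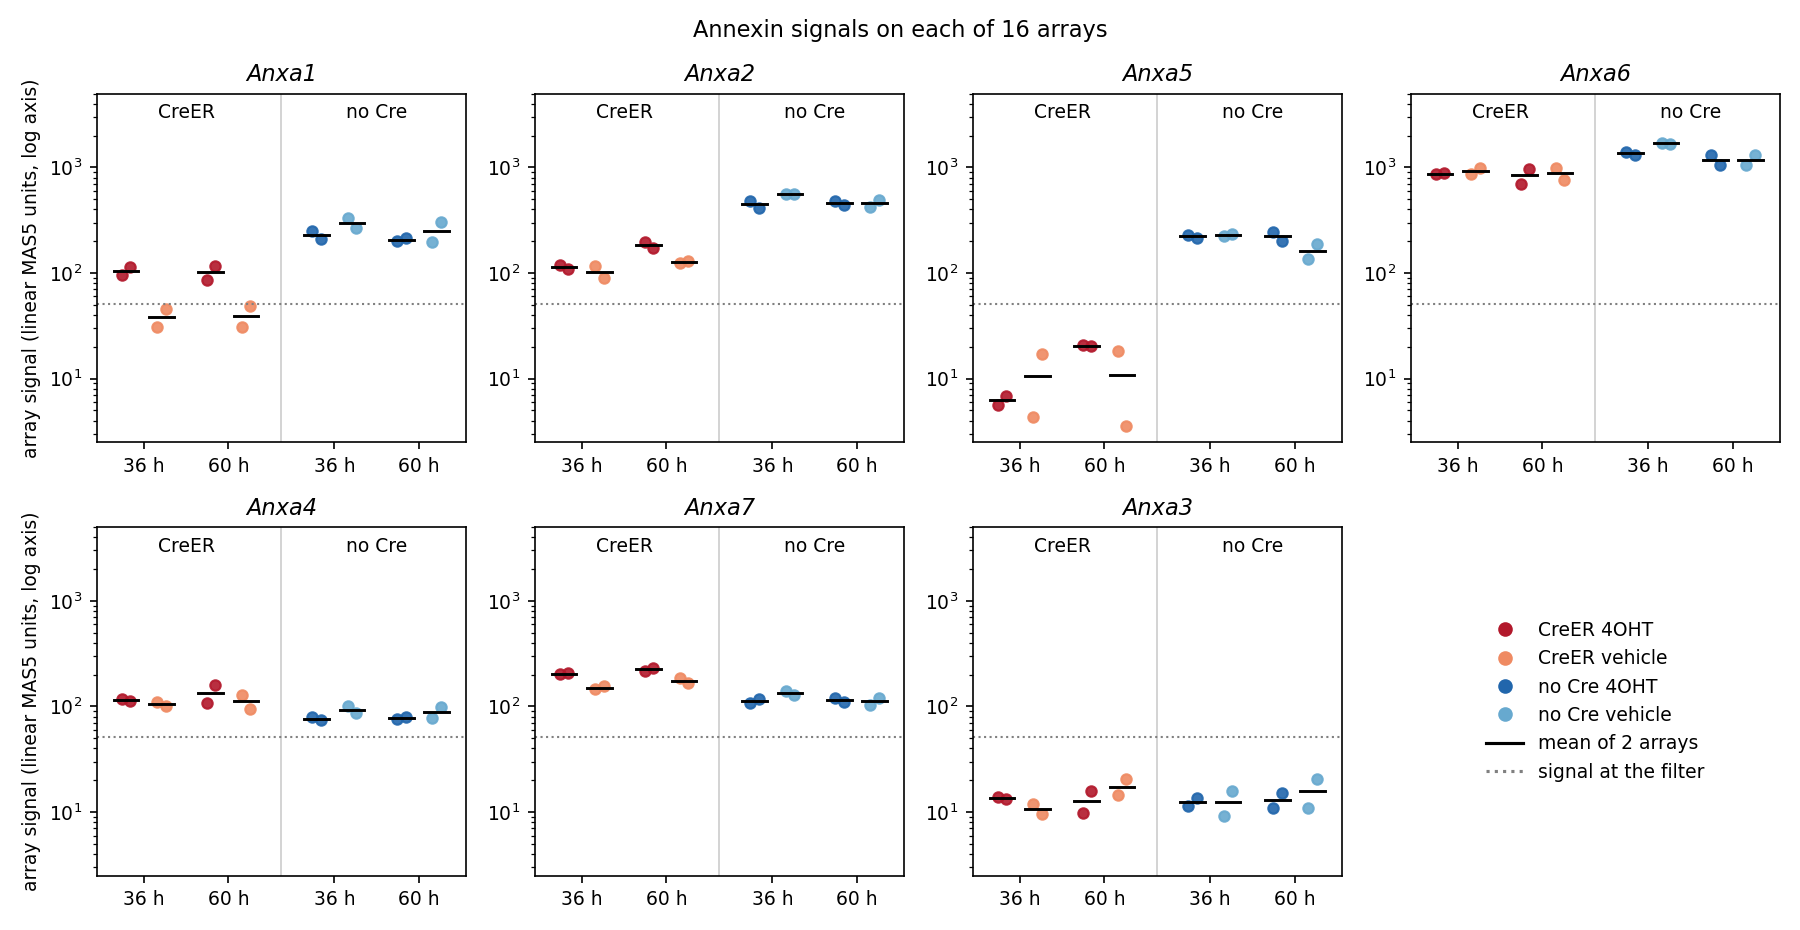
Signal of 7 annexins on each of the 16 arrays (points, linear MAS5 units on a log axis), by genotype, time and agent, with the mean of the 2 arrays of a group as a bar and the filter signal of 51.1 as a dotted line. Anxa1, Anxa2, Anxa5 and Anxa6 lie lower in CreER than in no-Cre arrays, and in CreER arrays Anxa1 lies higher with 4OHT than with vehicle.

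Anxa7, also called synexin and known to promote membrane contact in exocytosis, had the next largest difference in CreER cultures. Its signals with 4OHT were 203.8 and 206.3 at 36 h and 217.7 and 233.1 at 60 h. With vehicle they were 145.5 and 154.7 at 36 h and 185.0 and 166.0 at 60 h. All 4OHT arrays were above all vehicle arrays, yet the difference of 0.37 (SE 0.15) did not pass the test (limma adjusted p = 0.0727). It passed after quantile normalization (0.45, adjusted p = 0.000695) and after median scaling (0.42, adjusted p = 0.00142), settings under which 38.8% and 32.9% of all genes were called. Its 2 dimmer probe sets overlapped between 4OHT and vehicle and were not called. They gave -0.16 (limma adjusted p = 0.643), opposite in sign to the brightest, and 0.34 (adjusted p = 0.297).

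Anxa2, which forms a complex with S100a10 at the plasma membrane, gave 119.3 and 109.5 with 4OHT at 36 h, against 115.4 and 90.3 with vehicle. At 60 h it gave 195.2 and 174.1 with 4OHT, against 124.9 and 130.9 with vehicle. The arrays overlapped at 36 h and not at 60 h. Over both times the difference was 0.31 (SE 0.14, limma adjusted p = 0.12), and it passed after quantile normalization (0.37, adjusted p = 0.0164) and median scaling (0.36, adjusted p = 0.0167).

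For the remaining members the differences with 4OHT in CreER cultures were 0.16 for Anxa4, 0.14 for Anxa5 and -0.08 for Anxa6, whose sign turned after quantile normalization. Anxa5 lay between 3.57 and 20.8 on the CreER arrays, so its values there are near the low end of the scale. Without Anxa5, the median difference of the other 5 annexins was 0.31, beside -0.07 over all genes tested. The change in Anxa1 between 36 h and 60 h was not called, with a difference of responses of -0.07 (SE 0.30), and 0 of 6 annexins were called by limma in that comparison, against 0.197% of all genes, 0.0919% as higher and 0.105% as lower. At an unadjusted p under 0.05 it held 1 annexin, Anxa5, whose CreER signals all lay under the filter signal, against 4.28% of all genes, and nothing is read from it.

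In cultures without Cre 0 of 6 annexins were called for 4OHT by limma, 0 had an unadjusted p under 0.05 (2.94% of all genes had), and 0.0656% of all genes were called, 0.0131% as higher and 0.0525% as lower. Anxa1 signals were 251.2 and 209.0 with 4OHT at 36 h, against 330.5 and 267.5 with vehicle. At 60 h they were 198.8 and 212.2 with 4OHT, against 195.8 and 303.6 with vehicle. The agent's arrays were lower at 36 h and overlapped with vehicle at 60 h, and the difference over both times was -0.29 (SE 0.15, unadjusted p = 0.0513).

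The response of Anxa1 to 4OHT differed between CreER and no-Cre cultures by 1.42 (SE 0.21, limma adjusted p = 2.57e-08). It was the 1 annexin of 6 called in this test of the difference, in which 2.34% of all genes were called and 1.52% were called as more positive and 0.814% as more negative in CreER cultures. Anxa2 (0.46) and Anxa7 (0.46) had unadjusted p-values of 0.018 and 0.0278 there and did not pass after adjustment. Anxa7 passed after quantile normalization (adjusted p = 0.016) and median scaling (adjusted p = 0.0283), where 19.2% and 15.4% of all genes were called.

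**Figure D2:**
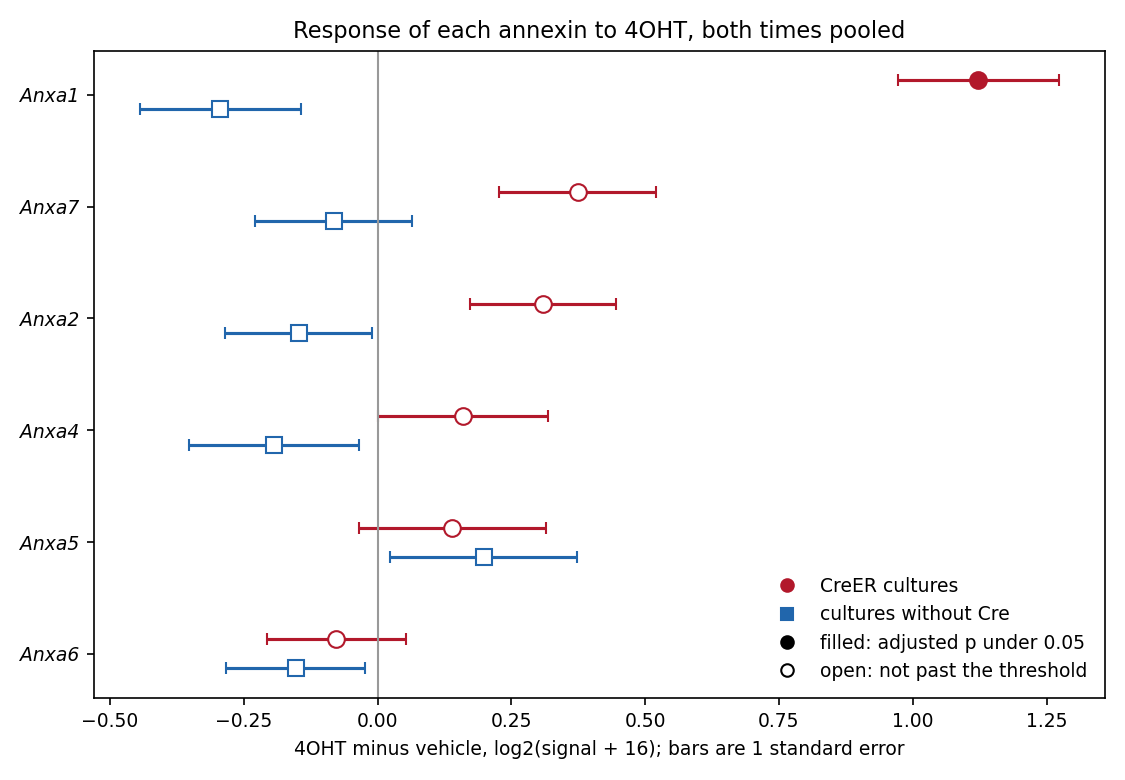
Difference between 4OHT and vehicle on the log2(signal + 16) scale for 6 annexins, with CreER cultures as circles above cultures without Cre as squares, bars of 1 standard error, and both times pooled. Only Anxa1 in CreER cultures, at 1.12, is past the threshold.

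**Figure D3:**
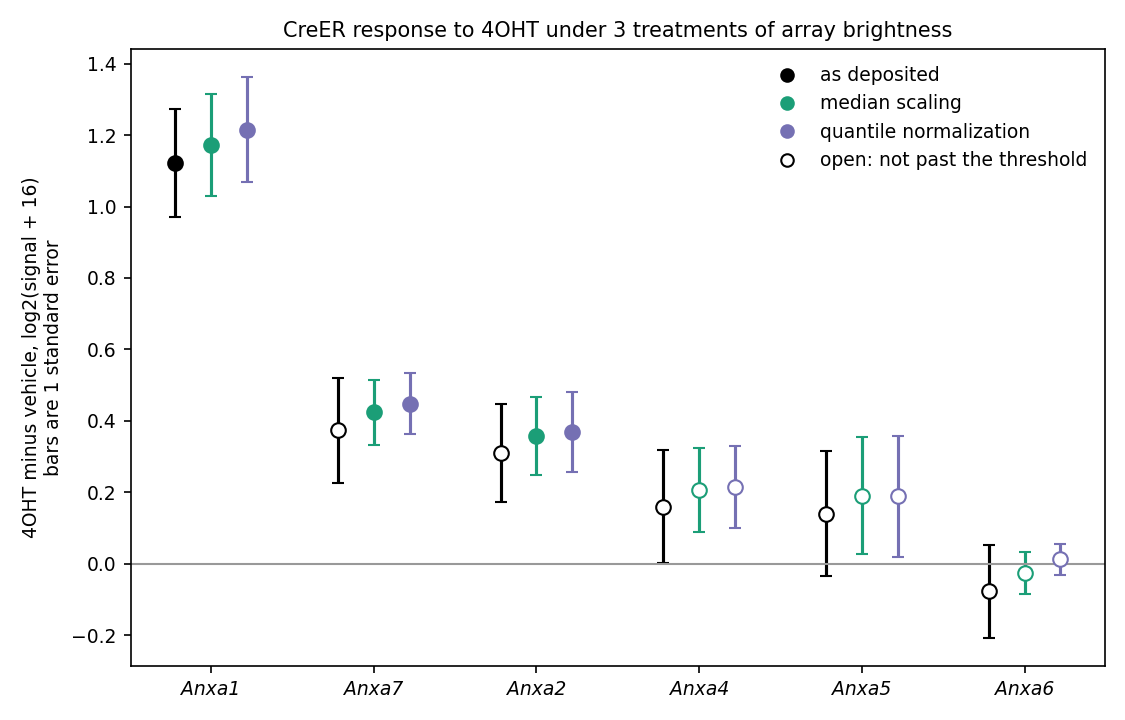
Difference between 4OHT and vehicle in CreER cultures on the log2(signal + 16) scale for 6 annexins, with bars of 1 standard error, from the deposited signals, after median scaling and after quantile normalization. Anxa1 is past the threshold in all 3, and Anxa7 and Anxa2 only after either scaling.

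The larger differences in the family lay between genotypes, and they were present under vehicle. Anxa5, the phosphatidylserine binder used to stain dying cells, Anxa1, Anxa2 and Anxa6 were lower in CreER cultures, and Anxa7 was higher. Leaving out Anxa5, 4 of the other 5 annexins were called under vehicle, where 34.5% of all genes tested were called, 26.6% as lower and 7.97% as higher. Of these 4, Anxa1 had all its CreER vehicle signals under the filter signal. Under 4OHT all 5 were called, Anxa1, Anxa2 and Anxa6 as lower and Anxa4 and Anxa7 as higher, with 38.5% of all genes called, 30% as lower and 8.58% as higher. The median difference of these 5 was -0.56 under 4OHT and -0.64 under vehicle, beside -0.15 and -0.13 over all genes. After quantile normalization the medians over all genes were 0.0034 and 0.0206. All these annexin calls were kept there and after median scaling, and Anxa4 was then called under vehicle too (0.36, adjusted p = 0.0147, and 0.37, adjusted p = 0.012).

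Anxa5 signals in CreER cultures with 4OHT were 5.63 and 6.88 at 36 h and 20.8 and 20.2 at 60 h, against 230.2, 213.6, 243.1 and 201.3 in no-Cre cultures with 4OHT. With vehicle they were 4.30, 16.9, 18.2 and 3.57 in CreER cultures, against 225.3, 232.7, 135.0 and 186.6 in no-Cre cultures. Every CreER array was far below every no-Cre array. All CreER signals of Anxa5 were under the filter signal of 51.1, so they may not differ from background, and only a bound is given. Set against that filter signal, the no-Cre mean was at least 4.34-fold higher under 4OHT (222.0 ± 18.4) and at least 3.81-fold higher under vehicle (194.9 ± 44.7, SD, n = 4 each). Anxa5 has a single probe set.

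Anxa2 reached at most 195.2 on the CreER arrays listed above, against 477.0, 414.7, 481.3 and 441.4 in no-Cre cultures with 4OHT and 561.8, 553.5, 420.5 and 490.1 in no-Cre cultures with vehicle. No CreER array overlapped with a no-Cre array. Means under vehicle were 115.4 ± 17.9 in CreER cultures and 506.5 ± 65.7 in no-Cre cultures (SD, n = 4 each). The difference was -1.54 under 4OHT (SE 0.14, limma adjusted p = 2.14e-27) and -1.99 under vehicle (adjusted p = 4.78e-46). Its other 2 probe sets had signals of at most 19.9 and were not called.

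Anxa1 differed between CreER and no-Cre cultures by -0.98 with 4OHT (SE 0.15, limma adjusted p = 1.44e-09) and by -2.40 with vehicle (adjusted p = 9.93e-55) on the same scale. Its means were 102.7 ± 14.8 in CreER and 217.8 ± 23.0 in no-Cre cultures with 4OHT (SD, n = 4 each). With vehicle they were 38.8 ± 9.36 in CreER and 274.4 ± 58.4 in no-Cre cultures (SD, n = 4 each). The CreER arrays with 4OHT therefore stood between the CreER vehicle arrays and all no-Cre arrays, without overlap on either side. All CreER vehicle signals of Anxa1 lay under the filter signal, the highest at 48.1, so they may not differ from background. The size of the vehicle difference and its p-value are thus set against a dim group.

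Anxa6, which acts at late endosomes and recruits the Ras inhibitor Rasa1, was lower by a smaller amount. Signals with 4OHT were 859.9, 881.2, 702.2 and 972.5 in CreER cultures, against 1404, 1305, 1313 and 1055 in no-Cre cultures. With vehicle they were 855.8, 995.4, 993.6 and 759.7 in CreER cultures, against 1701, 1677, 1053 and 1296 in no-Cre cultures. Neither pair overlapped. The difference was -0.56 under 4OHT (limma adjusted p = 0.000102) and -0.64 under vehicle (adjusted p = 8.84e-06). Another bright probe set of Anxa6 gave -0.56 and -0.65 and was called under both agents. A dim one gave -0.23 and -0.07 and was not called.

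Anxa7 ran the other way. Means under 4OHT were 215.2 ± 13.4 in CreER and 114.6 ± 5.94 in no-Cre cultures (SD, n = 4 each), a difference of 0.82 (SE 0.15, limma adjusted p = 2.48e-07). Under vehicle they were 162.8 ± 17.0 in CreER and 122.8 ± 15.8 in no-Cre cultures (SD, n = 4 each), a difference of 0.37 (adjusted p = 0.037). On this probe set neither pair of groups overlapped. The vehicle call was lost without any 1 of 6 arrays (adjusted p between 0.0609 and 0.13): vehicle replicates 1 and 2 at 36 h and replicate 1 at 60 h, in CreER and in no-Cre cultures alike. The dimmer probe sets of Anxa7 overlapped under vehicle and were not called there (0.29, limma adjusted p = 0.245, and 0.17, adjusted p = 0.56). Under 4OHT they gave 0.43 (adjusted p = 0.0606), not called, and 0.49 (adjusted p = 0.0473), called.

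Anxa4, an annexin best known from epithelia, had 117.2, 111.8, 107.2 and 160.3 in CreER cultures with 4OHT, against 79.9, 73.7, 75.4 and 79.3 in no-Cre cultures with 4OHT. These groups did not overlap, and the difference of 0.58 (SE 0.16) was called (limma adjusted p = 0.00147). Its second probe set gave 0.76 (adjusted p = 8.87e-05). With vehicle the arrays overlapped and the difference of 0.22 did not pass (adjusted p = 0.287).

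**Figure D4:**
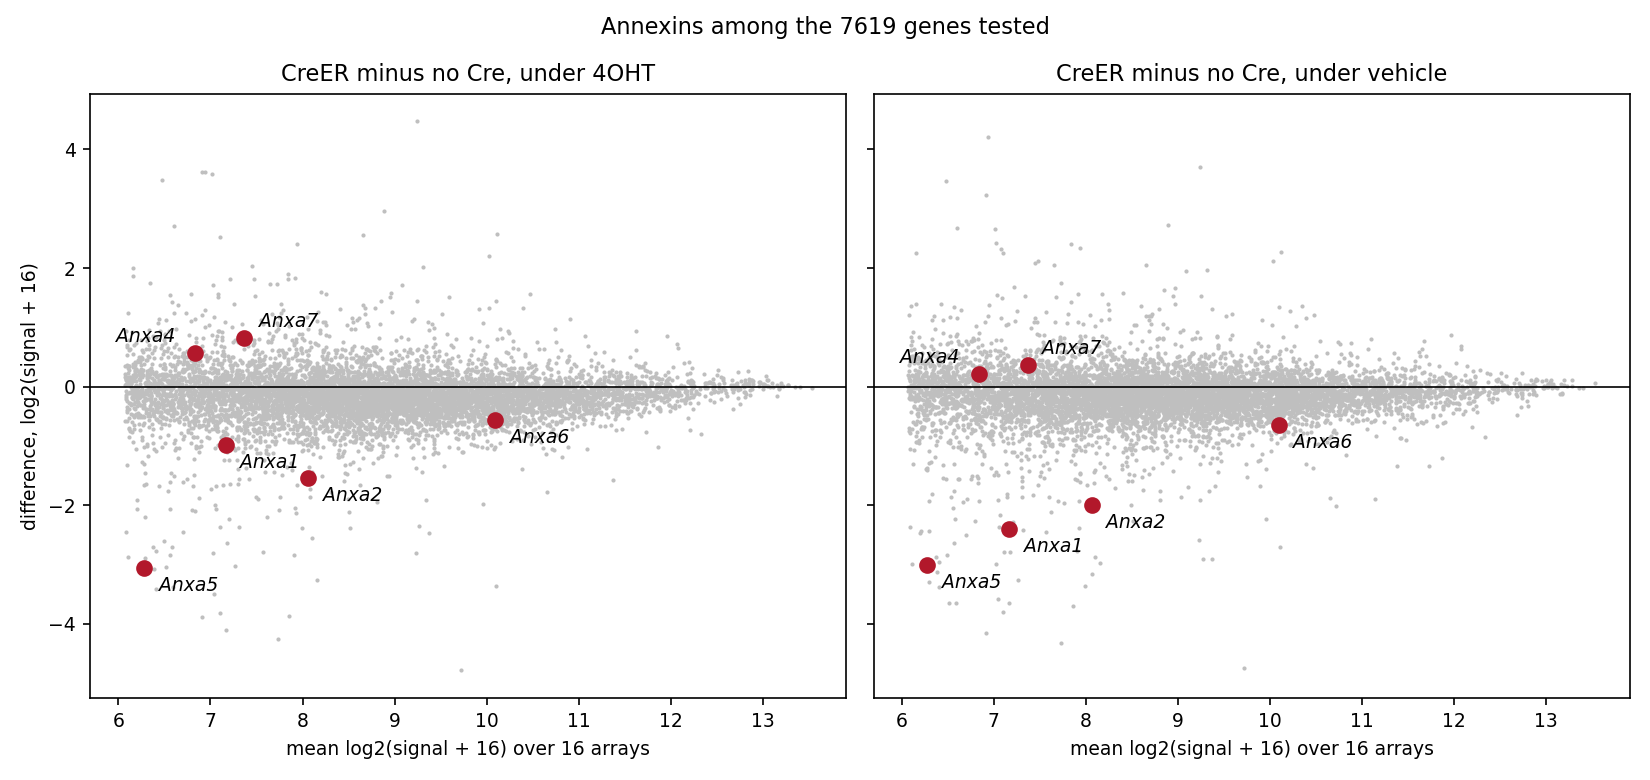
Difference between CreER and no-Cre cultures on the log2(signal + 16) scale against mean log2(signal + 16) over 16 arrays, under 4OHT and under vehicle, for the 7619 genes tested (grey) and 6 annexins (red). Anxa5 (shown without a test), Anxa2, Anxa1 and Anxa6 lie below zero in both panels and Anxa7 and Anxa4 above it, Anxa4 under vehicle without passing the test.

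Some measures of the arrays, and some genes listed as markers of other cell types, moved with genotype. The median signal was 107.0 ± 9.81 in CreER and 119.4 ± 9.97 in no-Cre arrays, and the 5′ to 3′ ratio of the actin control probe sets, a sign of RNA length, was 0.801 ± 0.062 and 0.72 ± 0.124 (SD, n = 8 each). With that ratio as a covariate the vehicle calls of Anxa6 (adjusted p = 0.0606) and Anxa7 (adjusted p = 0.152) were lost, and those of Anxa1 and Anxa2 were kept. The summed signal of the fibroblast and meningeal list was 2675 to 4249 in CreER and 720.0 to 920.7 in no-Cre arrays, almost all of it Thy1 and Fn1. Thy1 differed by 4.48 under 4OHT and 3.71 under vehicle, and Fn1 by only 0.45 and 0.52. The difference in the sum thus mainly follows a single gene, Thy1, and whether such cells were present was not tested. Of 7 neuronal markers 2 passed the filter, Map2 (-0.52 under 4OHT, -0.31 under vehicle) and Syt1 (-0.996 under 4OHT, -1.92 under vehicle), with list sums of 977.5 to 1762 in CreER and 1562 to 2260 in no-Cre arrays. Astrocyte sums overlapped, at 5153 to 7361 in CreER and 5272 to 6884 in no-Cre arrays, while their genes moved both ways. Under vehicle Gja1 (-2.04), S100b (-1.48) and Slc1a3 (-0.47) were lower and Aldh1l1 (1.09) and Aldoc (0.34) higher in CreER cultures. Microglial sums overlapped, at 169.2 to 280.6 in CreER and 192.5 to 331.1 in no-Cre arrays. Neural stem cell sums overlapped as well, at 14380 to 19180 in CreER and 15990 to 22170 in no-Cre arrays, while some of their genes were lower in CreER cultures. Under vehicle Nes (-0.83), Pax6 (-0.64) and Vim (-0.24) were called as lower, as were 26.6% of all genes. Egfr, Fabp7, Msi1 and Sox2 were not called. Under 4OHT Nes (-0.61) and Pax6 (-0.97) were called as lower, as were 30% of all genes, and the other stem cell genes tested were not called. The part of the marker differences in the annexin results was not tested.

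In CreER cultures Anxa2 was higher at 60 h, where its mean was 156.3 ± 34.0, against 108.6 ± 12.9 for 36 h (SD, n = 4 per time), and the times did not overlap. The difference was 0.45 (SE 0.14, limma adjusted p = 0.0226), the 1 call among 6 annexins where 5.28% of all genes were called, 1.69% as higher and 3.58% as lower. The call was lost when only CreER arrays were fitted (adjusted p = 0.107), when dim genes were tested too (adjusted p = 0.0666), and without any 1 of 5 arrays (adjusted p 0.0569 to 0.215). Those were the 4OHT replicates 1 and 2 at 36 h, 4OHT replicate 1 at 60 h, and vehicle replicate 2 at 36 h and at 60 h.

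Without Cre 0 of 6 annexins were called for time by limma, where 4.1% of all genes were, 2.52% as higher and 1.58% as lower, and 1 had an unadjusted p under 0.05, against 21.4% of all genes. It was Anxa6, at -0.36 (adjusted p = 0.0891), and its mean was 1179 ± 145 for 60 h, against 1522 ± 198 for 36 h (SD, n = 4 per time). In these arrays the actin ratio was 0.826 ± 0.055 for 60 h and 0.614 ± 0.053 for 36 h. With the ratio as a covariate the Anxa6 difference was 0.11 (adjusted p = 0.851). The difference of time effects between genotypes had 0 annexins called, against 2.14% of all genes, 0.866% as more positive and 1.27% as more negative, and 2 with an unadjusted p under 0.05, against 10.6% of all genes: Anxa2 (0.57) and Anxa5, with CreER signals under the filter signal.

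Across the 8 groups the order of levels differed between members. Anxa1 ran from CreER vehicle, through CreER 4OHT, to all no-Cre groups, with the neighbouring groups inside each of these steps overlapping. Anxa2 and Anxa6 likewise had the means of all CreER groups below those of all no-Cre groups, and Anxa7 and Anxa4 had them above. Within CreER cultures Anxa7 ran from vehicle at 36 h and vehicle at 60 h to 4OHT at 36 h and 4OHT at 60 h, with no overlap between neighbours. For Anxa2 the 36 h groups overlapped, followed by vehicle at 60 h and 4OHT at 60 h without overlap. Anxa3, an annexin known from neutrophils and microglia, gave 9.10 to 20.5 over the 16 arrays, with every neighbouring pair of groups overlapping. Among the other annexins on the array, Anxa8, Anxa9, Anxa10 and Anxa13, 0 of 4 passed the filter, and their highest signal was 48.9, for Anxa9.

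Group means of Anxa2 and Anxa5 had a Pearson r of 0.986 over the 8 groups, Anxa1 and Anxa2 of 0.93, and Anxa4 and Anxa7 of 0.953, while each of Anxa4 and Anxa7 was negatively correlated with Anxa1, Anxa2, Anxa5 and Anxa6 (-0.605 to -0.858). These values describe 8 points that share arrays, brightness and the split by genotype. All CreER signals of Anxa5 lay under the filter signal, so nothing is read from its correlations here. By the same measure the genes closest to Anxa1 were Klf4 (0.99), Prkca (0.985) and Susd6 (0.982). Those closest to Anxa7 were Rapgef3 (0.994), Ddit4 (0.984) and Ltbp3 (0.982), and those closest to Anxa5 were Cadps2 (0.999), Ints6 (0.997) and Lxn (0.997). For Anxa2 they were Clec16a, Zfp276 and Pisd-ps3 (0.994 to 0.996), for Anxa6 Rufy1, Cox16 and Magee1 (0.992 to 0.995), and for Anxa4 Pdxk, Adam15 and Scn8a (0.977 to 0.982).

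Proteins that bind annexins were followed as a list of 10, of which 6 were tested. In CreER cultures 2 of 6 rose with 4OHT and 0 fell, where 4% of all genes were called as higher and 8.36% as lower: S100b, a calcium-binding S100 protein that is also an astrocyte marker, by 1.05 (limma adjusted p = 3.01e-12), and S100a10, the partner of Anxa2, by 0.35 (adjusted p = 0.0155). S100b averaged 453.2 ± 150.1 with 4OHT and 203.5 ± 31.0 with vehicle in CreER cultures, and 476.7 ± 92.6 with 4OHT and 591.4 ± 23.0 with vehicle in no-Cre cultures (SD, n = 4 each). Its response differed between genotypes by 1.37 (adjusted p = 5.44e-10), and under vehicle S100b differed between CreER and no-Cre cultures by -1.48. S100a10 averaged 4137 ± 380 with 4OHT and 3242 ± 404 with vehicle in CreER cultures, and its response did not pass the test of a difference between genotypes (adjusted p = 0.391). At neither time alone was S100a10 called for 4OHT in CreER cultures (limma adjusted p = 0.296 at 36 h and 0.149 at 60 h). The summed astrocyte markers were 5153 to 6921 with 4OHT and 6057 to 7361 with vehicle in CreER cultures, with S100b higher and Slc1a3 lower among 5 tested. Neuronal sums were 977.5 to 1501 with 4OHT and 1465 to 1762 with vehicle, although of the 2 genes tested Map2 fell (-0.38, adjusted p = 0.0245) and Syt1 rose (0.49, adjusted p = 0.0212), and the response of Syt1 differed between genotypes by 0.93 (adjusted p = 0.00391). Among the stem cell markers tested, Pax6 (-0.40, limma adjusted p = 0.034) and Fabp7 (-0.27, adjusted p = 0.046) fell with 4OHT in CreER cultures, and the others were not called. The part of other cell types in the Anxa1 response was not tested.

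The counts of list members that follow stand beside all-gene shares of 7.97% called as higher and 26.6% as lower in CreER cultures under vehicle, and 8.58% and 30% under 4OHT. Under vehicle 0 of 6 partners were higher and 4 lower in CreER cultures: S100b (-1.48), Plat (tissue plasminogen activator, which Anxa2 can bind, -0.84), Tmsb4x (-0.48) and Sri (sorcin, a partner of Anxa7, -0.47). Under 4OHT 1 was higher, S100a10 (0.39), and 2 lower, Plat (-0.94) and Tmsb4x (-0.38). Partner medians were -0.14 under 4OHT and -0.48 under vehicle, beside -0.15 and -0.13 over all genes.

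Of 18 genes of plasma membrane repair 11 were tested. In CreER cultures 1 rose with 4OHT, Smpd1 (acid sphingomyelinase, 0.49, limma adjusted p = 0.004), and 0 fell. Of all genes, 4% were called as higher and 8.36% as lower in that comparison. Under vehicle 0 were higher and 5 of 11 lower in CreER cultures than without Cre, against 26.6% of all genes called as lower, led by the caveolar genes Cavin1 (-1.31) and Ehd2 (-1.11), and under 4OHT 0 were higher and 3 of 11 lower, near the share of all genes (30%), again with Cavin1 (-1.01) and Ehd2 (-0.91). Genes of endosome and exosome transport, 11 tested of 12, had 0 called with 4OHT over both times, against 12.4% of all genes. At 36 h alone Rasa1 was called as lower with 4OHT (-0.68, limma adjusted p = 0.0196), as were 1.5% of all genes. At 60 h its difference was 0.33 (adjusted p = 0.33). Under vehicle 2 of 11 were higher and 5 lower in CreER cultures, against 7.97% and 26.6% of all genes, and Rasa1, the Ras inhibitor that Anxa6 recruits, was among the lower ones (-0.99).

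Phosphatidylserine exposure and recognition had 12 of 17 genes tested and 0 called for 4OHT in CreER cultures, against 12.4% of all genes. Under vehicle 1 of 12 was higher in CreER cultures, the receptor Axl (1.06), and 4 lower, among them the ligands Gas6 (-0.61) and Pros1 (-0.61), counts near the shares of all genes (7.97% and 26.6%). Under 4OHT 3 were higher and 2 lower, against 8.58% and 30% of all genes. Other calcium-dependent phospholipid binders, 5 tested of 15, had 0 called with 4OHT in CreER cultures, against 12.4% of all genes. Under vehicle 1 was higher in CreER cultures, Prkcb (0.73), and 3 lower, led by Cpne2 (-0.91), against 7.97% and 26.6% of all genes.

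Glucocorticoid-responsive genes, a list that leaves out Anxa1, had 12 of 13 tested. With 4OHT in CreER cultures 1 rose, Dusp1 (a phosphatase of MAP kinases, 0.91, limma adjusted p = 1.97e-09), and 2 fell, Fkbp5 (-0.55) and Mt2 (-0.39), against 4% and 8.36% of all genes. Under vehicle 3 of 12 were higher in CreER cultures, among them Mt2 (1.27), against 7.97% of all genes. The 3 lower ones, among them Cebpd (-1.39) and the receptor gene Nr3c1 (-0.70), were near the share of all genes (26.6%). Among genes of annexin A1 signalling and phospholipase A2, 1 of 7 was tested, Pla2g4a, which was not called for 4OHT and was higher in CreER cultures under 4OHT (0.62, adjusted p = 0.00203).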

How the data were processed

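TRIzol extraction and biotin labelling of total RNA preceded hybridisation, per the labels' protocols. The deposited values are linear intensity signals, 1 for each probe set on each array, which the authors made with MAS5, per the submitters' processing notes. Its version and scaling target are not given in the sources used here. Of 22690 probe sets, 64 controls were left out, and 20380 had 1 symbol, 691 several and 1555 none. Gene symbols were those of the platform annotation, of which 20351 were found in RefSeq's GRCm38.p6 gene table. Groups were read from the titles. Tests ran on log2 values of the deposited signals, and a gene was tested if its mean log2(signal + 16) reached the 40th percentile. One limma 3.58.1 fit in R 4.3.3 took all 8 group means, with 8 residual degrees of freedom, a mean-variance trend, 11 two-sided contrasts and Benjamini-Hochberg adjustment at 0.05 over 7619 genes. The prior degrees of freedom were infinite, so a gene's variance came from the shared trend. The fit was tested on simulated data. The number of arrays limits the precision. Every annexin was named, with at most 4 called genes per pathway list and the 3 most correlated genes per annexin. Members and lists were chosen with earlier results of these data known. Alternatives were quantile normalization, median scaling, no filter, another pseudocount, no trend, a replicate block, the compared arrays alone, the actin ratio as a covariate, other probe sets and each array left out.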

Additional observations from a re-analysis of the deposited data

Results flagged for a closer look

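The response of Anxa1 to 4OHT differed between genotypes by a test of the difference itself, 1.42 on the log2(signal + 16) scale (limma adjusted p = 2.57e-08). Over 7 other settings the difference lay between 1.31 and 1.71, with adjusted p between 7.12e-10 and 0.0187.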

How the results depend on the processing

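Counts here include Anxa5, whose CreER signals lay under the filter signal. With quantile normalization or median scaling, 3 were called for 4OHT in CreER cultures with the times pooled and at 60 h, 2 at 36 h, 2 for the difference of responses, 1 for time without Cre (Anxa6, lower) and 2 for the difference of time effects (Anxa2 and Anxa6). Calls over all genes rose as well, for 4OHT with the times pooled to 38.8% with quantile normalization and 32.9% with median scaling, against 12.4% from the deposited signals, and for the difference of responses to 19.2% and 15.4%, against 2.34%. Without the trend, or with the actin ratio as a covariate, 2 were called for 4OHT with the times pooled. The covariate left 3 under vehicle between genotypes (16.8% of all genes, against 34.5%). Testing dim genes left 0 at 36 h and 0 for time in CreER cultures, and fitting only the compared arrays left 0 for time in CreER cultures and gave 1 without Cre. A pseudocount of 1 gave 2 at 60 h (Anxa5 added, on signals near background, from which nothing is read). Leaving out 1 array gave 1 to 2 calls at 60 h (Anxa5 again, without CreER vehicle replicate 1), 4 to 5 under vehicle between genotypes, 0 to 1 for time in CreER cultures and 0 to 1 for time without Cre (Anxa6, without CreER vehicle replicate 1 or 2 or no-Cre 4OHT replicate 1 at 60 h). A dim probe set of Anxa2 gave 0.0177 between genotypes under vehicle, against -1.99 for the bright one. Counts in this section without a share of all genes beside them describe the settings only, and nothing about the annexins is read from them. The causes were not tested.

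Of the called annexin differences recomputed under the other settings 122 kept direction and call and 5 lost the call, with 1 array left out 245 kept both and 11 lost the call, and with another probe set 4 kept both, 10 lost the call and 1 turned. Replicate numbers did not pair the arrays (correlations of deviations -0.123 to 0.311 over 28 pairs of groups), and with the replicate block the counts were the same, with 1 for 4OHT in CreER cultures, 5 under vehicle and 6 under 4OHT between genotypes. The tallies for other settings and for 1 array left out, and these genotype counts, include Anxa5. Its CreER signals lay under the filter signal and its genotype differences are described without a test, so nothing about stability is read from its calls.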
